A study of Mus musculus with 4 samples.

Results

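Levels of 38 genes of DNA replication and cell division were followed in dendritic cells from mouse spleen after an injection of sheep red blood cells (SRBC). They are 18 genes of S phase, in which DNA is copied, and 20 genes of M phase, in which chromosomes are separated. Their loci were found among the 23657 loci with a gene name by gene symbol alone. The genes themselves were chosen with earlier results of these data known. The SRBC group (2 libraries) came from mice given 1000000000 SRBC and the PBS group (2 libraries) from mice given 100 uL of phosphate-buffered saline (PBS), each for 1 h. In both groups the mice were C57BL/6 and heterozygous for Gpr183, a receptor that positions dendritic cells in the spleen, and the cells were sorted as CD11c+ I-Ab+ CD4+ CD8-. The labels do not say whether each library came from a separate mouse. The p-values below therefore concern variation among libraries, and it may be technical in origin. Each standard error and p-value also rests mostly on a spread shared over all loci tested. A gap between the 2 libraries of a group at a single gene enters them only in part.

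The values are FPKM (fragments scaled to transcript length and to the fragments mapped in the library), so levels can be compared between genes. All 38 genes were among the 11020 named loci tested, which reached at least 1 FPKM in at least 2 libraries. The genes of the sort markers were present in every library. Cd4 stood at 75.8 and 96.4 FPKM in SRBC libraries, against 88.4 and 86.6 FPKM in PBS libraries, and Itgax, which encodes CD11c, at 222 and 253 FPKM, against 180 and 212 FPKM. H2-Ab1, which encodes a chain of I-Ab, was higher, at 7750 and 8910 FPKM in SRBC libraries, against 4440 and 3900 FPKM in PBS libraries (adjusted p = 0.0425). Of the 9 CD4 dendritic cell markers, 3 were called higher by the test described below (H2-Ab1, Irf4 and Zbtb46) and Clec4a4 was called lower (adjusted p = 0.00512). Xist, transcribed in female cells, was at 339 and 306 FPKM in the SRBC libraries and at 0.21 and 0.327 FPKM in the PBS libraries, while the Y-linked genes Ddx3y, Eif2s3y, Kdm5d and Uty were at most 0.113 FPKM in SRBC libraries and at least 3.57 FPKM in PBS libraries. The treatment and this difference in sex-linked transcripts therefore cannot be told apart in any comparison below. In bulk RNA of this kind, fewer dividing cells and less of a transcript in each dividing cell cannot be told apart either.

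S phase genes license replication origins, unwind DNA, hold the polymerases on it and make its building blocks, and many are switched on by E2F transcription factors. M phase genes build the spindle, check the attachment of chromosomes and drive the ordered destruction of cyclins, and many of their promoters carry a CHR element, which recruits the DREAM and MuvB complexes, together with CCAAT boxes bound by NF-Y. In spleen, committed precursors of conventional dendritic cells divide, and part of the differentiated population is also in cycle, so transcripts of both phases are usually found in sorted dendritic cells.

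The promoters of 4 members are shown, a pair for each phase with the smallest p-values among the genes with a promoter window: Pcna and Mcm3 of the S phase and Mki67 and Ube2c of the M phase. Mcm3 did not itself pass the test described below. The windows run from 250 bases before to 50 bases after the annotated start, from RefSeq on GRCm38.p6, and are printed 5′ to 3′ on the strand of the gene. They lie at chr2:132253131-132253430 (minus strand) for Pcna, chr1:20820263-20820562 (minus strand) for Mcm3, chr7:135716330-135716629 (minus strand) for Mki67 and chr2:164769679-164769978 (plus strand) for Ube2c. Capitals mark, on either strand, the CHR element TTTGAA, the CCAAT box CCAAT and E2F forms TTTCGCGC, TTTGGCGC, TTTGCCGC and TTTCCCGC.
Pcna: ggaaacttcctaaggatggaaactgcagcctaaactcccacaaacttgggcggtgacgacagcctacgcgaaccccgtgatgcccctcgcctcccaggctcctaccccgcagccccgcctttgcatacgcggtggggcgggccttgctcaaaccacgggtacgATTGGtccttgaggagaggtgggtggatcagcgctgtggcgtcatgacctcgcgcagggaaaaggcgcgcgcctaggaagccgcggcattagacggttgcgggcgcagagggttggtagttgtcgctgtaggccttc
Mcm3: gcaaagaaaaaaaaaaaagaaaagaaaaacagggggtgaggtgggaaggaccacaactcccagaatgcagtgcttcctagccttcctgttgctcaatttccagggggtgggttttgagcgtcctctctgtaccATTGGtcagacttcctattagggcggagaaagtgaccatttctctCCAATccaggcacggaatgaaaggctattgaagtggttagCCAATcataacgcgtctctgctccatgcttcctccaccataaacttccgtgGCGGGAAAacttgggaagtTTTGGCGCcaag
Mki67: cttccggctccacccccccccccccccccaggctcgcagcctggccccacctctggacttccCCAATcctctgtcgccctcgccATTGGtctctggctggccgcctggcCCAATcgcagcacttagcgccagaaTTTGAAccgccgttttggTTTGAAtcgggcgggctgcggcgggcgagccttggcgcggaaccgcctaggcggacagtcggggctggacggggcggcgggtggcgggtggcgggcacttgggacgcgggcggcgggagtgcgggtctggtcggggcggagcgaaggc
Ube2c: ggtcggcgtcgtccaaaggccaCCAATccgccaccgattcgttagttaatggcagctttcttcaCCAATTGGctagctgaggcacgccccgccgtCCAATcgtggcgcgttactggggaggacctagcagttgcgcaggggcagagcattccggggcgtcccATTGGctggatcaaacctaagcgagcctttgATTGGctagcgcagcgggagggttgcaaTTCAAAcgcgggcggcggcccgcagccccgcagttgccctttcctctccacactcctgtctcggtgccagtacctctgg

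The Mki67 window held 2 CHR elements and 3 CCAAT boxes, and the Ube2c window held 1 CHR element and 6 CCAAT boxes, one pair of them overlapping. The Mcm3 window held 2 E2F forms and 3 CCAAT boxes with no CHR element, and the Pcna window held 1 CCAAT box and none of the other letters. A window was found for 32 of the 38 members (not for Mcm4, Gins2, Ccne2, Ccna2, Aurkb and Tpx2). The CHR letters stood in 12 of 17 M phase windows (70.6%) and in 3 of 15 S phase windows (20.0%), beside 20.2% of the windows of 27025 genes and 14.4% of those of genes at tested loci. The E2F forms had the opposite distribution, with 1 of 17 M phase windows (5.88%, Cdk1) and 7 of 15 S phase windows (46.7%, among them Cdc6, Cdt1 and 4 Mcm genes), beside 2.6% of all windows and 5.15% of those at tested loci. The CCAAT box was in 15 of 17 M phase windows (88.2%) and 10 of 15 S phase windows (66.7%), beside 41.1% and 43.4%. The same lists of letters in genes that are no members gave 65.3% with CHR for 49 other mitosis genes and 33.3% with an E2F form for 39 other replication genes. These are matches of letters, not sites shown to be bound.

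**Figure D1:**
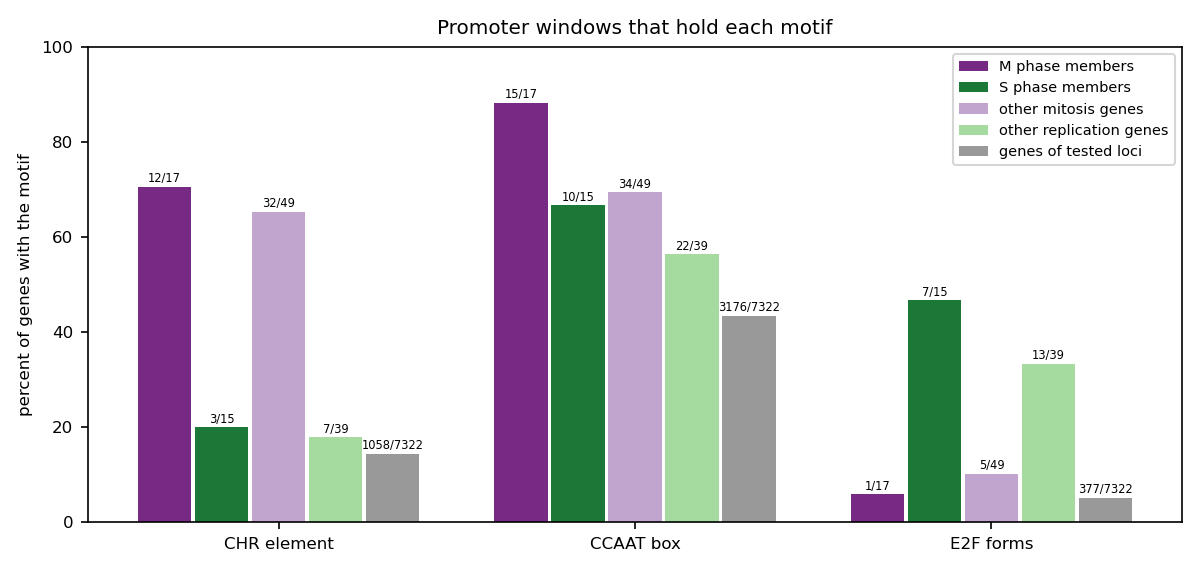
Share of genes (percent, vertical axis from 0) whose promoter window holds each motif on either strand, for M phase members, S phase members, other mitosis genes, other replication genes and all genes at tested loci; the fractions on top of the bars are genes with the motif over genes with a window. The CHR element is in 70.6% of M phase windows and the E2F forms in 46.7% of S phase windows.

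Of the 38 genes, 4 were higher in SRBC libraries and none was lower. In the S phase group Pcna rose, and in the M phase group Mki67, Ube2c and Top2a rose, by 1.61 to 2.01 times in mean FPKM. The other 34 did not pass an adjusted p of 0.05, the threshold used throughout, in limma's two-sided test on log2(FPKM + 1) with Benjamini-Hochberg adjustment over all 11020 loci. The 4 are 10.5% of the members, against 13.5% of all tested loci called higher, and the 0 members called lower stand against 6.2% of all loci. The share called higher was 5.56% of S phase genes and 15.0% of M phase genes, so these shares give no result about the members. The median log2 fold change, SRBC minus PBS, was 0.25 for the S phase genes and 0.43 for the M phase genes, beside 0.07 over all tested loci.

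**Figure D2:**
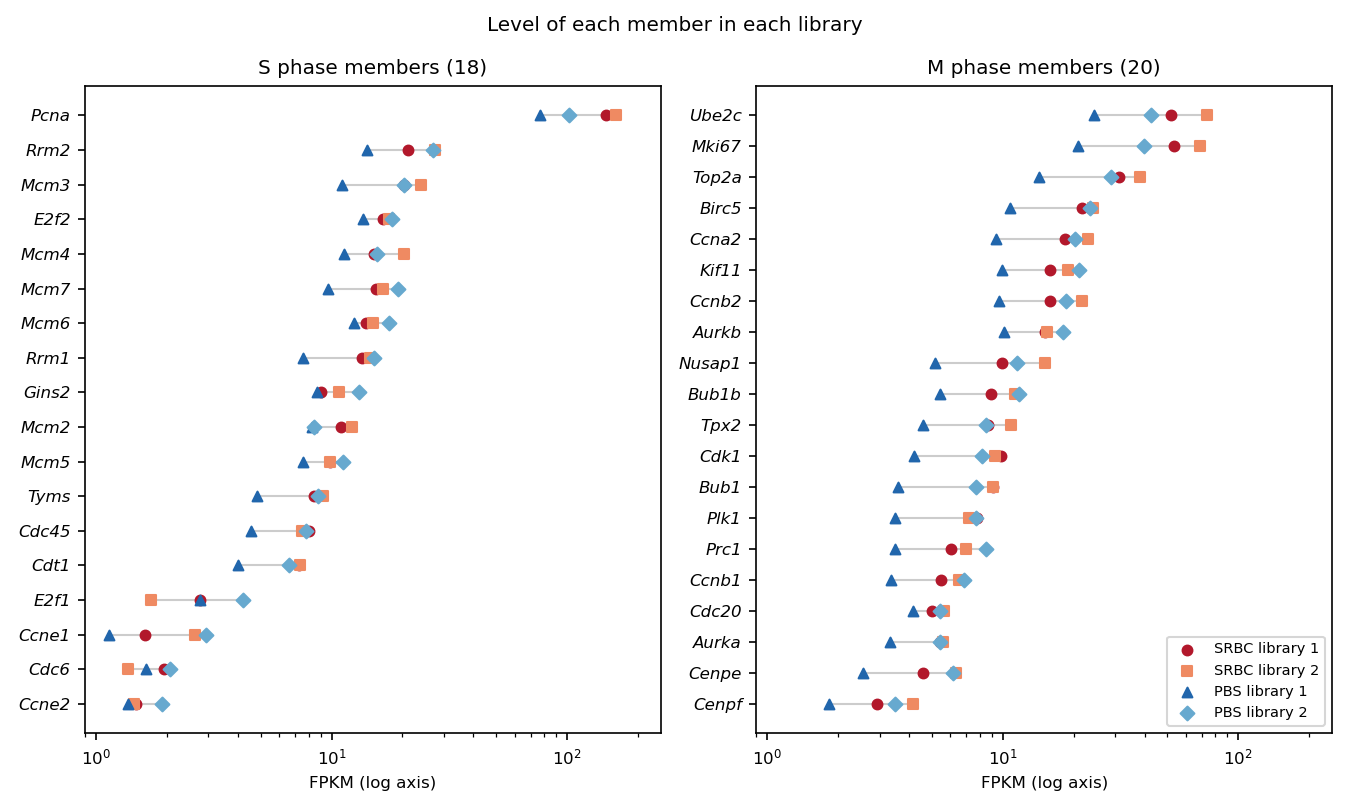
FPKM of each member in the 4 libraries (horizontal log axis; red circle and orange square, SRBC libraries 1 and 2; dark triangle and light diamond, PBS libraries 1 and 2; genes ordered by mean level). The triangle of PBS library 1 is the leftmost symbol for 36 of the 38 genes, and the diamond of PBS library 2 is the rightmost for 15.

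Pcna, the sliding clamp that holds DNA polymerase on its template, was the most abundant member and the one S phase gene that rose. Its locus on chromosome 2, from 132249162 to 132253314 (GENCODE M21 gene bounds, GRCm38), is shared in the deposited values with 5730494N06Rik, so a part of the value may belong to that transcript. It had 146 and 161 FPKM in SRBC libraries, against 76.9 and 102 FPKM in PBS libraries. Both SRBC libraries lay above both PBS libraries, and the log2 fold change was 0.79 ± 0.22 (SE, n = 2 libraries each, adjusted p = 0.011). Without SRBC library 2, the log2 fold change of Pcna was 0.72 with an adjusted p of 0.084, and without PBS library 1 it was 0.59 with an adjusted p of 0.19. After quantile normalization it was 0.18 with an adjusted p of 0.48, and with no filter on low values the adjusted p was 0.078.

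Mcm2 to Mcm7 encode the 6 subunits of the ring that unwinds DNA ahead of the fork. Mcm2 had 11.0 and 12.2 FPKM in SRBC libraries, against 8.28 and 8.43 FPKM in PBS libraries. It was the one member whose PBS libraries nearly coincided, at a ratio of 1.02, and its groups did not overlap, with a log2 fold change of 0.43 (adjusted p = 0.24). Mcm3 had 20.2 and 24.0 FPKM in SRBC libraries, against 11.1 and 20.2 FPKM in PBS libraries. Its log2 fold change of 0.53 ± 0.25 (SE) was the highest among the uncalled S phase genes (adjusted p = 0.15), and PBS library 2 sat level with SRBC library 1. Mcm4 had 15.2 and 20.2 FPKM in SRBC libraries, against 11.3 and 15.6 FPKM in PBS libraries. Mcm7 had 15.5 and 16.5 FPKM in SRBC libraries, against 9.67 and 19.2 FPKM in PBS libraries, so the PBS libraries enclosed the SRBC values. The same enclosure held for Mcm5, at 9.89 in both SRBC libraries against 7.56 and 11.2 FPKM in PBS libraries. Mcm6 had 14.0 and 15.0 FPKM in SRBC libraries, against 12.4 and 17.6 FPKM in PBS libraries. The log2 fold changes of these 4 subunits lay between -0.03 for Mcm6 and 0.38 for Mcm4, and none passed the test.

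The loaders and partners of the ring gave similar pictures. Cdt1, which brings the ring to origins, had 7.25 and 7.37 FPKM in SRBC libraries, against 4.01 and 6.57 FPKM in PBS libraries. Its groups did not overlap, with a log2 fold change of 0.43 (adjusted p = 0.29). Cdc45, which joins the ring to form the active helicase, had 7.99 and 7.52 FPKM in SRBC libraries, against 4.53 and 7.76 FPKM in PBS libraries. Gins2, a subunit of the GINS complex in the same helicase, had 9.03 and 10.8 FPKM in SRBC libraries, against 8.67 and 13.1 FPKM in PBS libraries. Cdc6, the other loading factor, was low, at 1.95 and 1.37 FPKM in SRBC libraries, against 1.63 and 2.07 FPKM in PBS libraries. Cdc6 was one of only 2 members whose lowest value was in an SRBC library.

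The enzymes of nucleotide supply differed more between the PBS libraries than between the groups. Rrm1, the large subunit of ribonucleotide reductase, had 13.4 and 14.6 FPKM in SRBC libraries, against 7.55 and 15.1 FPKM in PBS libraries. Rrm2, its small subunit, had 21.1 and 27.5 FPKM in SRBC libraries, against 14.1 and 26.9 FPKM in PBS libraries. Tyms, which makes thymidylate, had 8.41 and 9.17 FPKM in SRBC libraries, against 4.84 and 8.73 FPKM in PBS libraries. For all 3 enzymes PBS library 2 was within or above the range of the SRBC libraries and PBS library 1 was the lowest, with PBS library 2 at 1.8 to 2.0 times its level.

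The drivers of S phase entry had log2 fold changes of -0.47 to 0.12 and none passed the test. E2f1, an activating E2F factor, had 2.77 and 1.71 FPKM in SRBC libraries, against 2.75 and 4.22 FPKM in PBS libraries. It had the most negative log2 fold change of the 38, at -0.47 ± 0.29 (SE, adjusted p = 0.28), with its lowest value in SRBC library 2. E2f2, its relative, was more abundant, at 16.5 and 17.6 FPKM in SRBC libraries, against 13.6 and 18 FPKM in PBS libraries. Ccne1 and Ccne2 encode the E cyclins that start S phase with Cdk2. Ccne1 had 1.62 and 2.63 FPKM in SRBC libraries, against 1.13 and 2.94 FPKM in PBS libraries, the widest gap between PBS libraries of any member at 2.59 times. Ccne2 had 1.48 and 1.45 FPKM in SRBC libraries, against 1.36 and 1.90 FPKM in PBS libraries. These transcripts rest on few fragments: by an estimate from the steps of the FPKM values, Ccne1 had about 21 fragments in PBS library 1 and 56 in PBS library 2. These counts are rough, since they use the full transcript length while the library totals behind them were estimated with 200 bases taken off.

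Among the M phase genes, Mki67 had the largest log2 fold change. It encodes Ki-67, the protein that coats mitotic chromosomes and is widely used to mark cycling cells, and lies on chromosome 7 from 135689784 to 135716361. It had 53.1 and 68.7 FPKM in SRBC libraries, against 20.9 and 39.6 FPKM in PBS libraries. The groups did not overlap, and the log2 fold change was 1.04 ± 0.25 (SE, adjusted p = 0.0027). The mean of the SRBC libraries was 2.01 times that of the PBS libraries, and PBS library 2 was itself 1.90 times PBS library 1.

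Ube2c, the ubiquitin-conjugating enzyme that works with the anaphase-promoting complex (APC/C) to destroy cyclins, was the most abundant M phase gene. It lies on chromosome 2 from 164769898 to 164778822 and had 51.9 and 73.8 FPKM in SRBC libraries, against 24.4 and 42.5 FPKM in PBS libraries. Its groups did not overlap and its log2 fold change was 0.92 ± 0.25 (SE, adjusted p = 0.0074). Top2a, the topoisomerase that untangles chromosomes before they part, lies on chromosome 11 from 98992943 to 99024189. It had 31.1 and 38.1 FPKM in SRBC libraries, against 14.2 and 28.7 FPKM in PBS libraries. PBS library 2 lay just under the lower SRBC library, and the log2 fold change of 0.74 ± 0.26 (SE) was close to the threshold (adjusted p = 0.041). The calls of Mki67, Ube2c and Top2a all ended without PBS library 1, with log2 fold changes of 0.60, 0.53 and 0.25 and adjusted p-values of 0.13, 0.19 and 0.57. They also ended without SRBC library 2, with log2 fold changes of 0.86, 0.67 and 0.59 and adjusted p-values of 0.056, 0.19 and 0.32. Top2a alone of them lost its call without SRBC library 1, at 0.88 and an adjusted p of 0.056. After quantile normalization the log2 fold changes of Mki67, Ube2c and Top2a were 0.61, 0.46 and 0.41, with adjusted p-values of 0.16, 0.24 and 0.36, and with no filter on low values the adjusted p-values were 0.12, 0.15 and 0.26.

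The cyclins and their kinase did not pass the test. Cdk1, the kinase that starts mitosis, had 9.87 and 9.24 FPKM in SRBC libraries, against 4.20 and 8.20 FPKM in PBS libraries. Its groups did not overlap, with a log2 fold change of 0.61 (adjusted p = 0.12). Ccna2, cyclin A2 of late S phase and G2, had 18.4 and 23.0 FPKM in SRBC libraries, against 9.39 and 20.3 FPKM in PBS libraries. Ccnb1 and Ccnb2 encode the B cyclins that activate Cdk1 at the start of mitosis. Ccnb1 had 5.46 and 6.53 FPKM in SRBC libraries, against 3.36 and 6.84 FPKM in PBS libraries. Ccnb2 had 15.8 and 21.6 FPKM in SRBC libraries, against 9.67 and 18.6 FPKM in PBS libraries. In these 3 cyclins PBS library 2 lay within or above the SRBC libraries. Cdc20, which activates APC/C at anaphase, had the smallest log2 fold change of the M phase genes, at 0.14, with 5.00 and 5.64 FPKM in SRBC libraries, against 4.14 and 5.42 FPKM in PBS libraries.

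Among the mitotic kinases, Bub1, a sensor of unattached chromosomes, came closest to the threshold, at a log2 fold change of 0.67 ± 0.28 (SE, adjusted p = 0.095). It had 9.09 and 9.05 FPKM in SRBC libraries, against 3.59 and 7.70 FPKM in PBS libraries, without overlap. Bub1b, which encodes the checkpoint protein BubR1, had 8.89 and 11.3 FPKM in SRBC libraries, against 5.39 and 11.7 FPKM in PBS libraries. Plk1, a kinase of spindle assembly and mitotic exit, had 7.77 and 7.20 FPKM in SRBC libraries, against 3.49 and 7.69 FPKM in PBS libraries. The PBS 2 value of Plk1 thus fell between its SRBC values, 2.21 times above PBS library 1. Aurka, the Aurora kinase of spindle poles, had 5.42 and 5.57 FPKM in SRBC libraries, against 3.32 and 5.42 FPKM in PBS libraries. Aurkb, the kinase of the chromosomal passenger complex, had 15.1 and 15.4 FPKM in SRBC libraries, against 10.1 and 18 FPKM in PBS libraries. Birc5, which encodes survivin of the same complex, had 21.6 and 24.2 FPKM in SRBC libraries, against 10.7 and 23.5 FPKM in PBS libraries.

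The kinetochore and spindle genes had log2 fold changes of 0.19 to 0.60 and none passed the test. Tpx2, which nucleates spindle microtubules, had 8.64 and 10.8 FPKM in SRBC libraries, against 4.59 and 8.48 FPKM in PBS libraries. It was the one gene of this set whose groups did not overlap, though by a small margin (log2 fold change 0.55, adjusted p = 0.17). Nusap1, a binder of spindle microtubules, had 9.95 and 15.1 FPKM in SRBC libraries, against 5.17 and 11.5 FPKM in PBS libraries. Cenpe, a kinetochore motor, had 4.58 and 6.36 FPKM in SRBC libraries, against 2.56 and 6.14 FPKM in PBS libraries. Cenpf, a large kinetochore protein, was the least abundant M phase gene, with 2.92 and 4.17 FPKM in SRBC libraries, against 1.83 and 3.49 FPKM in PBS libraries. In these 3 genes PBS library 2 fell between the SRBC libraries. Kif11, the motor that pushes spindle poles apart, had 15.9 and 18.9 FPKM in SRBC libraries, against 9.96 and 21.1 FPKM in PBS libraries. Prc1, which bundles microtubules of the central spindle, had 6.01 and 6.96 FPKM in SRBC libraries, against 3.49 and 8.50 FPKM in PBS libraries. Kif11 and Prc1 were thus both highest and both lowest in a PBS library.

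**Figure D3:**
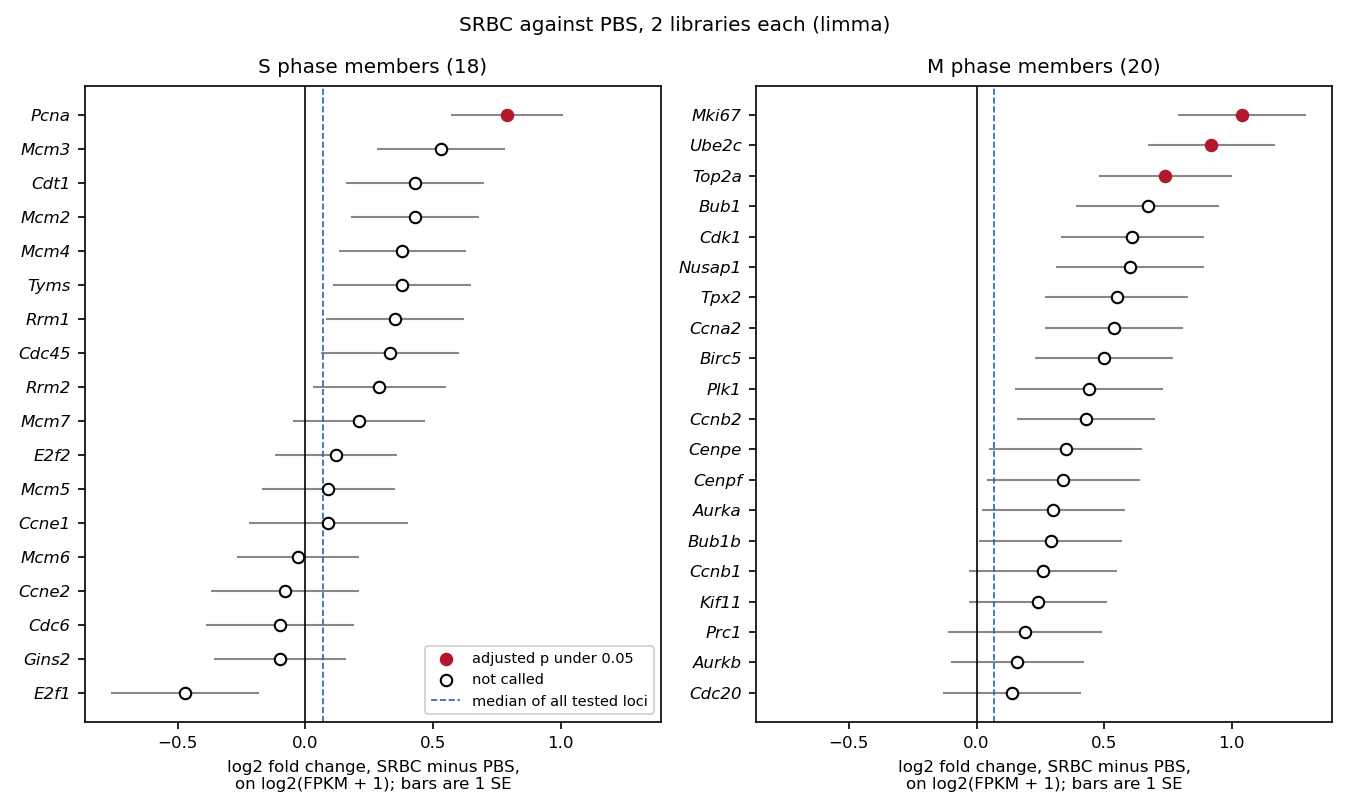
Log2 fold change, SRBC minus PBS, of each member on the log2(FPKM + 1) scale from limma (point) with 1 standard error (line), 2 libraries a group; filled points pass an adjusted p of 0.05 and the dashed line is the median of all tested loci, 0.07. Every M phase gene lies to the right of 0 (0.14 to 1.04), and 13 of the 18 S phase genes do.

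By log2 fold change, 20 of 20 M phase genes and 13 of 18 S phase genes were above 0 on the deposited scale, and 12 and 4 of them were after each library was rescaled to the same FPKM total (the TPM scale). That rescaling moved the median of all tested loci to -0.33. Relative to the median of all loci, the M phase median stood 0.36 higher on the deposited scale and 0.37 higher on the TPM scale, and the S phase median 0.18 and 0.16 higher. None of the 38 was called on the TPM scale, where Mki67 had a log2 fold change of 0.63 (adjusted p = 0.13) and Pcna one of 0.35 (adjusted p = 0.26). The summed FPKM was 509007 and 558016 in SRBC libraries and 410321 and 377167 in PBS libraries.

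Both SRBC libraries lay above both PBS libraries for 3 S phase genes (Mcm2, Pcna and Cdt1) and 6 M phase genes (Mki67, Top2a, Cdk1, Bub1, Tpx2 and Ube2c). Those 9 are 23.7% of the members, against 34.3% of all tested loci. No member had both SRBC libraries below both PBS libraries, which 24.7% of all tested loci had. These are counts, without a test of the difference in shares.

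A feature shared by nearly all of the 38 genes was a low value in PBS library 1. PBS library 1 was the lowest of the 4 libraries in all 20 M phase genes and in 16 of 18 S phase genes, 94.7% of the members, whereas it was lowest in 42.6% of all tested loci. The exceptions were E2f1 and Cdc6, which were lowest in SRBC library 2. PBS library 2 exceeded PBS library 1 in 38 of 38 members and in 73.0% of all loci. The PBS 2 to PBS 1 ratio ran between 1.31 for Cdc20 and 2.44 for Prc1 in M phase genes, with a median of 2.03, and between 1.02 for Mcm2 and 2.59 for Ccne1 in S phase genes, with a median of 1.52. The highest of the 4 libraries was SRBC library 2 in 19 members, PBS library 2 in 15, SRBC library 1 in 4 and PBS library 1 in none.

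Set against each PBS library alone, the members gave different pictures. The median difference of the SRBC mean on the log2 scale was 0.89 for M phase genes and 0.56 for S phase genes against PBS library 1, beside 0.17 for all loci. Against PBS library 2 it was -0.00 for M phase genes and -0.13 for S phase genes, beside -0.03 for all loci. The mean SRBC level was above PBS library 2 in 10 of 20 M phase genes, up to 1.54 times for Mki67, and in 6 of 18 S phase genes, up to 1.51 times for Pcna. It was lowest relative to PBS library 2 for Prc1 among M phase genes, at 0.763 times, and for E2f1 among S phase genes, at 0.53 times.

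The calls also depended on which PBS library was kept. Dependence on 1 library was not particular to the PBS group, since the calls also ended without SRBC library 2, as given above. Without PBS library 1, no member was called higher, while 10.9% of all loci were. Without PBS library 2, 14 M phase genes and 5 S phase genes (Pcna, Mcm3, Rrm1, Rrm2 and Tyms) were called higher, while 14.9% of all loci were. In each of these fits the lone PBS library is assumed to vary like the SRBC libraries. The SRBC libraries also differed, with SRBC library 2 the higher in 31 of 38 members (81.6%), beside 70.5% of all tested loci. The median difference on the log2 scale was 0.26 in M phase genes and 0.10 in S phase genes, beside 0.15 over all tested loci. The gap between PBS libraries, at a median of 0.91 in M phase genes and 0.52 in S phase genes, was wider than that, beside 0.21 over all tested loci.

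**Figure D4:**
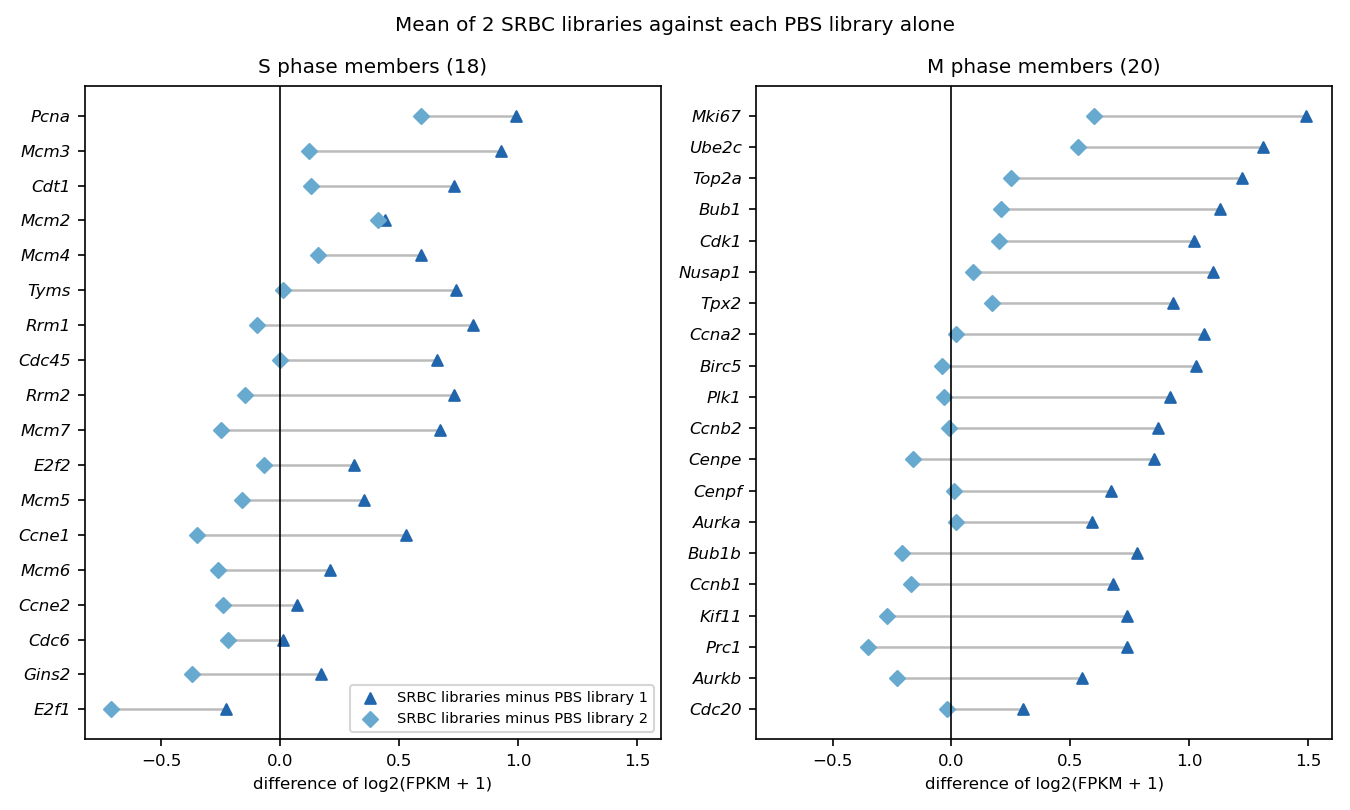
Mean of the 2 SRBC libraries minus PBS library 1 (dark triangles) and minus PBS library 2 (light diamonds), as a difference of log2(FPKM + 1), for each member. Triangles lie to the right of 0 for all genes but E2f1, with medians of 0.56 (S phase) and 0.89 (M phase), and diamonds scatter around 0, with medians of -0.13 and -0.00.

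The level of a transcript also went with its call. Top2a, the least abundant of the 4 called members, averaged 28.0 FPKM over the 4 libraries, and no uncalled member reached that level. Of the 2077 tested loci at least as abundant as Top2a, a bound chosen after its value was seen, 702 (33.8%) were called higher and 82 lower, with a median log2 fold change of 0.43. In the authors' deposited table, the q-value of their own comparison was 0.0133 for Ube2c and 0.0368 for Top2a, while it was 0.124 for Mki67, 0.229 for Pcna and no lower than 0.124 for any other member.

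Genes of the same pathways outside the 38 gave the following counts. Of 48 other replication genes tested (origin recognition, polymerases, clamp loader, ligase and nucleotide enzymes), 1 rose and 1 fell (2.08% each, beside 13.5% and 6.2% of all tested loci), with a median log2 fold change of 0.04. Tk1, the thymidine kinase of the salvage pathway, had 74.6 and 53.3 FPKM in SRBC libraries, against 27.8 and 42.4 FPKM in PBS libraries (log2 fold change 0.86, adjusted p = 0.0094). Pold1, the catalytic subunit of DNA polymerase delta, had 6.32 and 5.18 FPKM in SRBC libraries, against 9.07 and 12.5 FPKM in PBS libraries (log2 fold change -0.79, adjusted p = 0.03). PBS library 1 was the lowest in 34 of these 48 genes. Pcna, the clamp, was thus called higher and Pold1, of the polymerase it holds, lower, with the limits given above for Pcna. Pold2, another subunit of that polymerase, had a log2 fold change of 0.18 and did not pass (adjusted p = 0.68). In the authors' own comparison the q-value was 0.229 for Pcna and 0.334 for Pold1.

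Of 62 other mitosis genes, 5 rose and none fell (8.06% called higher, beside 13.5% of all tested loci), with a median log2 fold change of 0.27, and PBS library 1 was the lowest in 58. The strongest was the locus named Atmin and Cenpn, at 31.4 and 34.5 FPKM in SRBC libraries, against 7.26 and 10.4 FPKM in PBS libraries (log2 fold change 1.81, adjusted p = 8.8e-07). Cenpn encodes a centromere protein, but the 2 genes share the value and their parts cannot be told apart. Lmnb1, lamin B1 of the nuclear envelope, had 62.9 and 65.4 FPKM in SRBC libraries, against 40.1 and 19.7 FPKM in PBS libraries. Cks2, a small subunit of Cdk complexes, had 20.3 and 22.8 FPKM in SRBC libraries, against 9.98 and 11.6 FPKM in PBS libraries. Cenpa, the histone variant of centromeres, had 24.8 and 21.7 FPKM in SRBC libraries, against 12.8 and 13.8 FPKM in PBS libraries. In Cks2 and Cenpa the PBS libraries were close together and both lay under the SRBC libraries, unlike in most members, with log2 fold changes of 0.94 and 0.76 (adjusted p = 0.0045 and 0.018). Foxm1 and Mybl2, transcription factors that activate M phase genes, did not pass the test (log2 fold changes of 0.44 and 0.35, adjusted p = 0.25 and 0.43).

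Of 30 regulators of the step into S phase tested, 6 were called higher and 1 lower (20.0% and 3.33%, beside 13.5% and 6.2% of all tested loci), with a median log2 fold change of 0.03. Cdkn1a, which encodes the Cdk inhibitor p21, had 53.3 and 67.9 FPKM in SRBC libraries, against 14.1 and 8.46 FPKM in PBS libraries (log2 fold change 2.36, adjusted p = 7.4e-09). Ccnd2, cyclin D2, had 64.6 and 72.4 FPKM in SRBC libraries, against 20.7 and 20.9 FPKM in PBS libraries (log2 fold change 1.67, adjusted p = 7.6e-07). Cdkn2d, the Cdk4 and Cdk6 inhibitor p19, had 28.4 and 35.3 FPKM in SRBC libraries, against 9.45 and 8.74 FPKM in PBS libraries (log2 fold change 1.69, adjusted p = 2e-06). Cdkn2b, the Cdk4 and Cdk6 inhibitor p15, had 7.29 and 6.36 FPKM in SRBC libraries, against 2.41 and 3.70 FPKM in PBS libraries (log2 fold change 0.96, adjusted p = 0.013). PBS library 1 was the lowest library for Cdkn2b and Ccnd2 and the higher of the PBS libraries for Cdkn1a and Cdkn2d. Cdk6 itself had 30.7 and 20.6 FPKM in SRBC libraries, against 11.8 and 14.8 FPKM in PBS libraries (log2 fold change 0.88, adjusted p = 0.009). The locus named 4930404N11Rik and Fzr1 had 14.2 and 16.9 FPKM in SRBC libraries, against 6.91 and 8.20 FPKM in PBS libraries (log2 fold change 0.95, adjusted p = 0.0057). Both had a smaller p-value than Cdkn2b. Cdkn2b, Cdk6 and Fzr1 are named here beyond the rule for these lists, after their values were seen. Ccnd1, cyclin D1, whose locus is shared with Mir3962, had 165 FPKM in SRBC library 1 and was listed at 0 in SRBC library 2, against 242 and 247 FPKM in PBS libraries. An exact 0 at such a locus can be a failed estimate, so its call as lower rests on that value. Cdkn1b, the Cdk inhibitor p27, had 15.6 and 18.4 FPKM in SRBC libraries, against 26.6 and 25.9 FPKM in PBS libraries, just short of the threshold (log2 fold change -0.60, adjusted p = 0.062). Ccnd3 and Rb1 had log2 fold changes of -0.33 and 0.04 and did not pass (adjusted p = 0.33 and 0.92).

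The clustered histone genes, taken by symbol alone, were called in both directions. Many of their transcripts are made in S phase to package new DNA, but which of the listed genes this holds for was not tested. Of 49 tested loci, 3 were called higher and 7 lower (6.12% and 14.3%, beside 13.5% and 6.2% of all tested loci). Their median log2 fold change was 0.05, beside 0.07 over all tested loci. The locus named Hist1h2ad and Hist1h3d had 2.72 and 4.0 FPKM in SRBC libraries, against 10.4 and 11.7 FPKM in PBS libraries (log2 fold change -1.48, adjusted p = 0.00012). Hist3h2a had 6.00 and 4.29 FPKM in SRBC libraries, against 15.0 and 11.0 FPKM in PBS libraries (log2 fold change -1.19, adjusted p = 0.0013). Hist1h4f was called higher, at 7.41 and 5.19 FPKM in SRBC libraries, against 0 and 3.51 FPKM in PBS libraries (log2 fold change 1.76, adjusted p = 0.0015). Hist2h2ab was also called higher, at 18.7 and 9.53 FPKM in SRBC libraries, against 8.52 and 3.57 FPKM in PBS libraries (log2 fold change 1.13, adjusted p = 0.0085). Several histone loci carry more than one gene name and near-identical copies can share fragments, so their single values are uncertain. PBS library 1 was the lowest in 17 of these 49 loci.

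**Figure D5:**
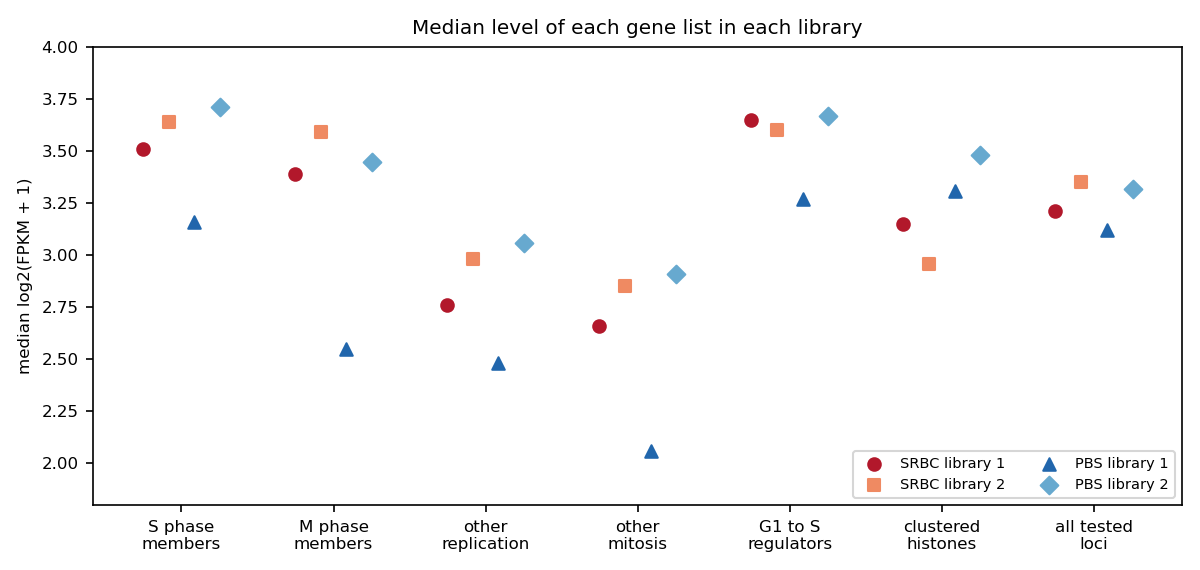
Median log2(FPKM + 1) of each gene list in the 4 libraries (SRBC libraries 1 and 2 on the left of each set, PBS libraries 1 and 2 on the right). PBS library 1 is lowest for every list shown but the clustered histone genes, which are lowest in SRBC library 2. It stands at 2.55 for M phase members, beside 3.39 to 3.59 in the other libraries. For all tested loci it stands at 3.12, beside 3.21 to 3.35.

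Markers of other cell types also differed between libraries, in another order than the members. Summed over their lists, erythroid markers were at 130 and 224 FPKM in SRBC libraries, against 73.1 and 16.6 FPKM in PBS libraries, with 6 of 7 tested loci called higher. Neutrophil markers were at 44.8 and 101 FPKM in SRBC libraries, against 65.7 and 7.8 FPKM in PBS libraries, and plasmacytoid dendritic cell markers at 74.3 and 128 FPKM, against 161 and 55.9 FPKM. PBS library 1 exceeded PBS library 2 in 8 of 10 erythroid, 8 of 9 neutrophil and 8 of 8 plasmacytoid dendritic cell loci, the reverse of all 38 members. The sum of progenitor markers was carried almost wholly by Kit, at 124 and 136 FPKM in SRBC libraries, against 102 and 119 FPKM in PBS libraries. This sum was lowest in PBS library 1, but the list as a whole did not share that order. PBS library 1 exceeded PBS library 2 in 4 of 8 progenitor loci and was the lowest in 2 of 4 tested loci, none of which was called. T cell markers summed to 67.3 and 88.5 FPKM in SRBC libraries, against 43.2 and 35.4 FPKM, B cell markers to 37.5 and 63.1 FPKM, against 45.0 and 31.6 FPKM, and NK cell markers to 10.3 and 21.1 FPKM, against 12.5 and 6.44 FPKM. Macrophage markers summed to 193 and 237 FPKM in SRBC libraries, against 175 and 157 FPKM in PBS libraries, plasma cell markers to 111 and 137 FPKM, against 63.0 and 52.3 FPKM, and CD8 dendritic cell markers to 20.9 and 25.9 FPKM, against 36.5 and 31.1 FPKM. Of 10 tested macrophage loci, 8 had a log2 fold change above 0, but only Spic was called higher. Spic had 31.4 and 36.8 FPKM in SRBC libraries, against 5.35 and 5.54 FPKM in PBS libraries. Emr1, the most abundant macrophage marker, had 33.6 and 36.7 FPKM, against 44.3 and 54.1 FPKM, and was not called. The T cell sum was carried mostly by Tcf7, Il7r and Cd5, which were called higher. Cd3e had 1.77 and 3.25 FPKM in SRBC libraries, against 4.32 and 0.99 FPKM in PBS libraries, and was not called. Cd8b1 was not called either (log2 fold change -0.74). The plasma cell sum was carried mostly by Xbp1 and Prdm1, which were called higher, while Igj was not called (log2 fold change -0.40). Among the marker lists 1 plasma cell gene and 1 progenitor gene were at 0 in every library. The part of any of these cells in the members' values was not tested.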

How the data were processed

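RNA from sorted splenic CD4 dendritic cells was sequenced from 100 ng per library on an Illumina HiSeq, per the labels' protocols. The authors deposited FPKM values per locus and library, per the file headers, made with CASAVA, TopHat2 2.0.8b and Cufflinks 2.1.1 on mm10, per the submitters' processing notes. The table also holds the authors' deposited q-values. Not given in the sources used here are the annotation, the strand, the scaling of libraries and the totals of reads, and overlapping or antisense genes may share fragments. An estimate from the steps of the FPKM values gave about 9340000 and 9100000 fragments in SRBC libraries and 9240000 and 9500000 in PBS libraries. The values matched such steps only weakly, with a mean cosine of 0.133 to 0.271, so these totals are rough.

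Of 30043 loci, 6386 carried no gene name and were left out. Loci with at least 1 FPKM in at least 2 libraries (11020) were tested on log2(FPKM + 1) with limma 3.58.1 in R 4.3.3 (eBayes with trend, Benjamini-Hochberg, two-sided, threshold 0.05). The spread of each locus had 2 residual degrees of freedom of its own and 28.7 prior ones shared over loci. Fold changes of low genes are understated on this scale. No permutation test of 2 against 2 can reach the threshold. The fit was tested on simulated data. Columns name the group of each library. Values carry no counts, so no counting intervals are given.

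The members and lists were chosen with earlier results of these data known. All members are named, with the called genes of smallest p in other lists and fixed regulators. Alternatives covered pseudocounts, filters, scalings and left-out libraries, beside other fits. Promoters were matched by symbol, and gene bounds are from GENCODE M21.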

Additional observations from a re-analysis of the deposited data

How the results depend on the processing

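Over 16 alternatives, no member was called lower, and the number called higher changed as follows. The S phase and M phase groups had 0 and 0 members called with no filter on low values (751 loci called higher and 184 lower in all), after quantile normalization (922 higher) and after rescaling to TPM (629 higher and 1648 lower, where the medians were -0.17 for S phase genes and -0.33 for all loci). Upper-quartile rescaling gave 1135 loci called lower and a median over all loci of -0.065, with 1 S phase and 2 M phase genes called. Leaving out 1 library at a time gave 0 to 5 S phase and 0 to 14 M phase genes called higher, medians of -0.13 to 0.56 and -0.0039 to 0.89, and 746 to 1641 loci called higher and 273 to 993 lower in all, where the lone library is assumed to vary like the others. With loci of several gene names left out, Pcna was not tested and 0 S phase genes were called. Top2a lost its call with a pseudocount of 0.1 or 0.01 (adjusted p-values that round to 0.050 and 0.056), without the mean-variance trend (0.086), after median-of-ratios rescaling (0.091) and after upper-quartile rescaling (0.13), while Mki67, Ube2c and Pcna kept theirs there. The cause of these changes was not tested, beyond the fewer libraries or loci. The log2 fold change had another sign for 17 members after rescaling to TPM, for 17 without PBS library 1, for 4 without PBS library 2, for 3 after quantile and 3 after upper-quartile rescaling, and for 2 without SRBC library 1 and for 2 without SRBC library 2. No sign changed under the other alternatives. None of these members was called in either fit.

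With the replicate block, 1 S phase and 3 M phase genes were called, with 1684 loci higher and 620 lower in all and unchanged medians of 0.25 and 0.43. The deviations of same-numbered libraries correlated at 0.0516 over loci, and with 2 pairs the libraries share only a number. The read totals behind the FPKM values are not known, which limits what can be said of genes such as Ccne1 and Cdc6.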
